A study of Mus musculus and Heterocephalus glaber with 4 samples.

Results

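Open chromatin was examined around 5 genes for transcription factors used to reprogram body cells to pluripotency, Pou5f1 (also called Oct4), Nanog, Sox2, Klf4 and Myc, in cultured mouse fibroblasts. The members were chosen by gene, and every deposited peak that came within 20 kb of a gene body was taken. This gave 24 peaks, 12 in each of the 2 mouse lists, out of 138378 mouse peaks and 302336 peaks in all 4 libraries of the series. The assay was ATAC-seq, which tags DNA wherever a transposase can reach it, so that a peak marks a stretch of open chromatin. Both mouse libraries were made from adult skin fibroblasts at passage 16, grown at 37 °C, 5% CO2 and 3% O2 in medium with 15% serum. One group, labelled control, gave 1 library, and the other, into which SV40 large T antigen (the viral oncoprotein that disables the p53 and retinoblastoma tumour suppressors) had been introduced, gave 1 library. The strain, the number of animals, and how large T antigen was introduced are not stated by the labels. The remaining 2 libraries, of naked mole rat fibroblasts, were not analysed here beyond their number of peaks.

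Pluripotent cells such as embryonic stem cells are held in their state by a small circuit of transcription factors, with Pou5f1, Sox2 and Nanog at its core. Each of these binds the regulatory DNA of the others, and all are silent in adult fibroblasts, which is why they must be supplied from outside, or switched back on, during reprogramming. Klf4, a zinc finger factor, and Myc, a factor that drives growth and cell division, form the classical reprogramming mixture together with Pou5f1 and Sox2. Fibroblasts already express both Klf4 and Myc. RNA was not measured in these libraries, so which genes are silent or active is background knowledge here and not a result.

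There were 75120 peaks in the control list, covering 110.0 Mb, and 63258 in the large T list, covering 86.43 Mb. Each peak carries the authors' score, which starts at 50 in both lists and which no source used here defines. A score is therefore given as its percentile, the percentage of peaks of the same list with a lower score, and scores are never set against each other across lists. Read depth is unknown. With 1 library per group no value has a replicate error, no test between control and large T cells was run, and differences between the lists describe those libraries. Positions are in mm9, the build named in the submitters' processing notes, and gene positions in mm9 were given with the choice of genes. Markers of fibroblasts and of other skin cells could not be checked, since their mm9 positions were not used here.

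Silent and fibroblast-expressed factors did not separate cleanly by open chromatin at the gene start. The starts of Klf4 and Myc lay inside very broad peaks in both lists, and no peak touched the start or any base of the gene body of Pou5f1 or Nanog in either list. Sox2 went with Klf4 and Myc: its start lay inside a peak of 2683 bp in control cells and 2844 bp in large T cells, although the gene is silent in fibroblasts. Within 20 kb, peaks covered 17.5% (Myc) to 18.9% (Klf4) of the sequence in control cells, against 5.63% (Pou5f1) to 9.32% (Nanog) for the 3 pluripotency genes. In large T cells the range was 16.8% (Klf4) to 19.8% (Myc) against 5.92% (Pou5f1) to 10.7% (Nanog). These shares include the peaks over the starts, which made up most of the covered sequence at Sox2, Klf4 and Myc.

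Scores pooled over all peaks within 20 kb did not follow the same order. The median score percentile of the 5 control peaks near the pluripotency genes was 82.6, and that of the 7 near Klf4 and Myc was 63.0. In the large T list the medians were 74.5 over 6 peaks and 74.1 over 6 peaks. Nanog alone gave 3 of the peaks near the pluripotency genes in each list, none of them over the gene. Over the starts the order was the other way. Sox2 stood at percentile 52.0 in control cells, below Klf4 (67.6) and Myc (68.9). In large T cells Sox2 stood at 65.4, below Klf4 (79.8) and Myc (77.3). The highest-scoring peak of all was found near Nanog in both lists, at percentile 97.2 in control cells and 97.9 in large T cells. With 5 genes and 1 library per group, these orders are descriptions and were not tested.

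**Figure D1:**
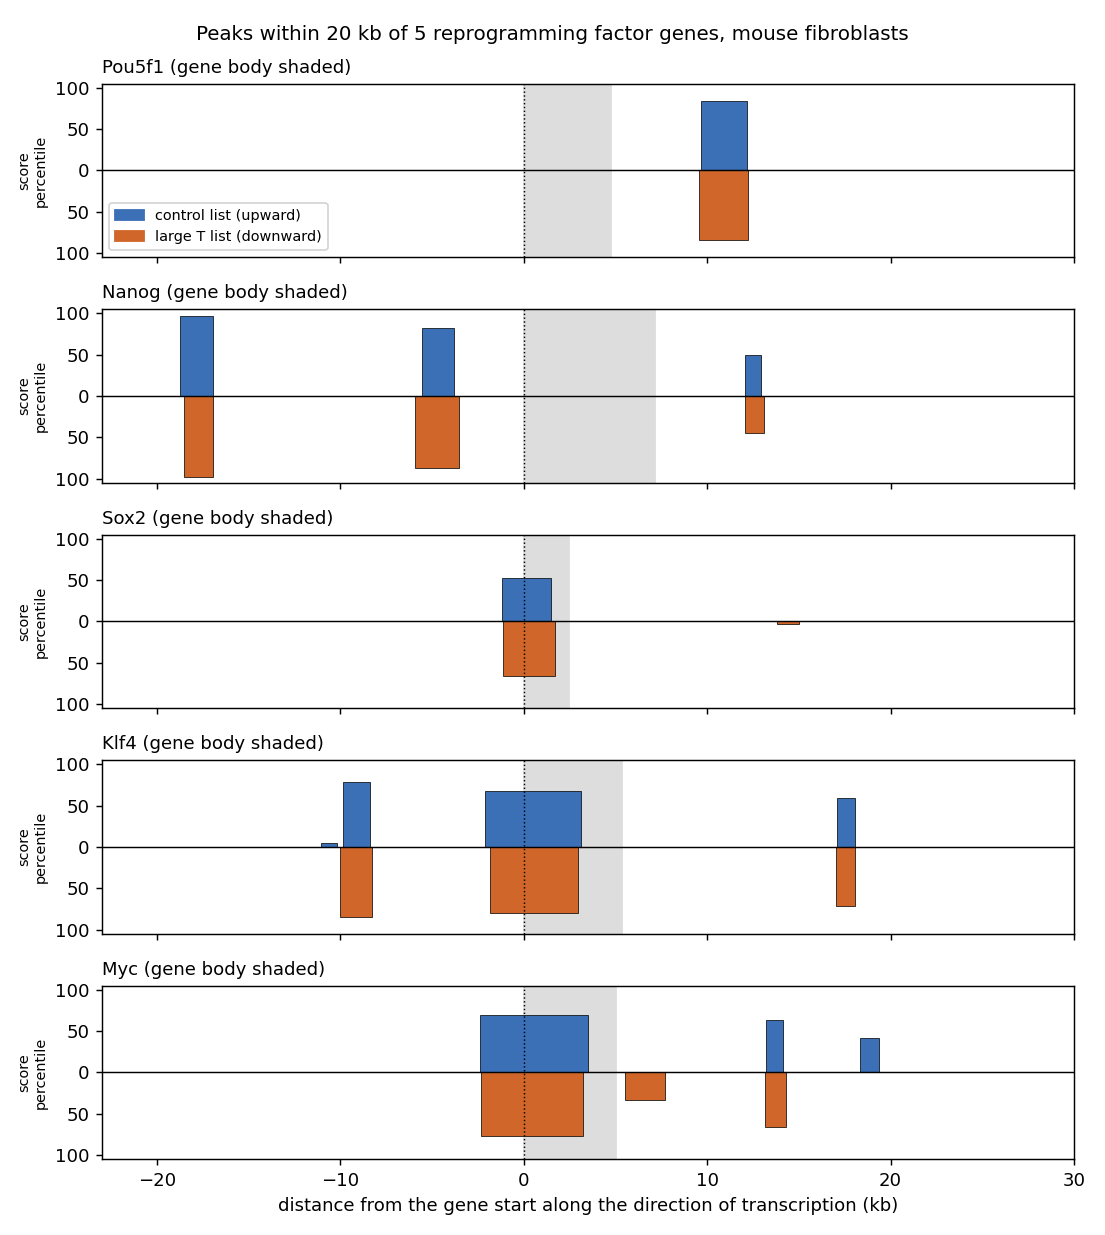
Peaks within 20 kb of each gene body, by distance from the gene start along the direction of transcription (horizontal axis, kb), with the score percentile within the list as bar height (control upward in blue, large T downward in orange) and the peak width as bar width; the gene body is shaded and the dotted line is the gene start. Peaks lie over the starts of Sox2, Klf4 and Myc in both lists, and none touches the gene bodies of Pou5f1 and Nanog.

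A site's CpG content, the frequency of a C followed by a G, was read from the 250 bases before each gene start in RefSeq's promoter sequences, for 4 of the 5 members (Pou5f1, Nanog, Sox2 and Klf4). Myc had no entry there. Pou5f1 and Nanog had 2 entries each. The entry nearest the start of RefSeq's gene was used for them, and the other was not described. The sequences are shown so that the CpG of genes with and without a peak over the start can be compared: every CpG is in capitals, and each runs 5′ to 3′ in the direction of transcription. They come from GRCm38.p6, a later build than that of the peaks, so these positions must not be set against the peak positions. Pou5f1 is at chr17:35505782-35506031 (plus strand), Nanog at chr6:122707239-122707488 (plus strand), Sox2 at chr3:34649745-34649994 (plus strand) and Klf4 at chr4:55532476-55532725 (minus strand).
Pou5f1: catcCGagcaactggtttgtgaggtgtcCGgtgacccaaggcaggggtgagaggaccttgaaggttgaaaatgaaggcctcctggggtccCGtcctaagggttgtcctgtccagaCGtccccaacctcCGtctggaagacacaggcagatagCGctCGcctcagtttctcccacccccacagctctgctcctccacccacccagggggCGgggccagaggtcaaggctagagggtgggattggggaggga
Nanog: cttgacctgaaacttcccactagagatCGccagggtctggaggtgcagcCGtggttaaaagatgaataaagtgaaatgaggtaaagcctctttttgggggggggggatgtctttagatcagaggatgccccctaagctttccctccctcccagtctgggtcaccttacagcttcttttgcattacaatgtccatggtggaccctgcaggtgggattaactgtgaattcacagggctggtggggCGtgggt
Sox2: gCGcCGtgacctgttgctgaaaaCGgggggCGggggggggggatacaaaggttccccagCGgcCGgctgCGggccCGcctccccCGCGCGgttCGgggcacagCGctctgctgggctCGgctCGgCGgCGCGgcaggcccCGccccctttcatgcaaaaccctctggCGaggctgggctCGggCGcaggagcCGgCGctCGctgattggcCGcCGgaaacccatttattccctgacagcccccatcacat
Klf4: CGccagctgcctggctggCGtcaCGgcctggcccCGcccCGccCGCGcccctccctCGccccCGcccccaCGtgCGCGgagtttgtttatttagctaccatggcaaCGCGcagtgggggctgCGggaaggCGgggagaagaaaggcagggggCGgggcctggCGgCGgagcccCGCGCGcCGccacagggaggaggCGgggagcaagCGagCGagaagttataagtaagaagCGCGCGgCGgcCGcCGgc

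The upstream stretches of Sox2 and Klf4 were dense in CpG and those of Nanog and Pou5f1 were not. Nanog had 3 CpG and Pou5f1 had 8, whereas Sox2 had 27 and Klf4 had 32. The median over all promoters was 6. By this count Nanog stood at percentile 29.0, Pou5f1 at 57.0, Sox2 at 91.4 and Klf4 at 95.4. By GC content they stood at percentiles 48.4, 76.7, 93.1 and 95.1, so Pou5f1 was above the median in both. The ratio of observed CpG to the number expected from the C and G content was 0.18 for Nanog, 0.33 for Pou5f1, 0.83 for Sox2 and 0.94 for Klf4, beside a median of 0.37 over all 32851 promoters in the table. These values stood at percentiles 27.1, 46.1, 83.5 and 91.0 of all promoters. In these 4 genes, the 2 with a peak over the start were thus the 2 with the higher CpG ratio, and the silent gene Sox2 stood close to Klf4, the only 1 of the 4 that fibroblasts express, which had the highest ratio. The order was not that of the highest score near each gene, where Nanog came first in both lists. A link between CpG content and open chromatin was not tested over other genes.

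**Figure D2:**
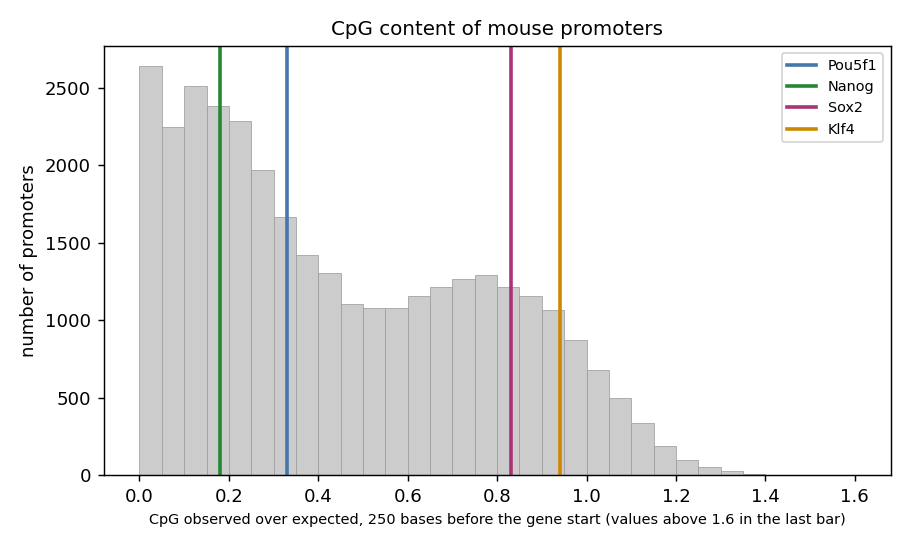
Number of mouse promoters (vertical axis) by observed over expected CpG in the 250 bases before the gene start (horizontal axis, bars of 0.05), over all 32851 promoters, with a line for each of 4 genes. Nanog (0.18) and Pou5f1 (0.33) stand in the left part of the distribution, Sox2 (0.83) and Klf4 (0.94) in the right part.

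Short motifs set the same promoters apart less. The GC box GGGCGG, bound by Sp1-family and Klf factors, was found on either strand in Pou5f1 (1 match), Sox2 (2 matches) and Klf4 (4 matches, counting those that overlap each other), and in 32.7% of all promoters of this length. It shares letters with CpG, since it contains one. TATAAA, found in 12.4% of promoters, the octamer ATGCAAAT, the sequence that gives Pou5f1's protein family its octamer-binding name (1.6%), and CATTGTT, a Sox-type site (3.29%), had no match on either strand in the 4 stretches. Only exact letters were searched, and near matches were not counted. Nanog, for example, holds ttttgcattacaatg, which differs in single letters from the reverse complements ATTTGCAT and AACAATG. Sox2 holds atgcaaaa, close to the octamer. A match describes letters, not binding, and the absence of a match says only that these letters are not in this window.

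Pou5f1 encodes Oct4, a POU-family factor that is required for the pluripotent state. Its gene body is given as chromosome 17, 35642977 to 35647722. The control list had 1 peak within 20 kb, at 35652650 to 35655170 (2521 bp, score 343.25, percentile 84.3), and the large T list had 1, at 35652554 to 35655204 (2651 bp, score 351.16, percentile 83.6). The large T peak contained the whole control peak. Both began well past the far end of the gene, 4.93 kb from it in control cells and 4.83 kb in large T cells. In RefSeq's GRCm38 gene order the next coding genes in that direction begin with Tcf19, and its mm9 position was not used here, so the peak was not assigned to a gene.

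The start of Pou5f1 lay in a gap without peaks of 31.2 kb in the control list and 46.0 kb in the large T list. Gaps this long were not rare: 76.7% of all gaps of the control list and 82.2% of those of the large T list were shorter, and the median gap was 13.9 kb and 15.5 kb. Counted by sequence, 72.2% of the bases between peaks lay in longer gaps in the control list and 68.4% in the large T list. The large T gap was longer because of 1 narrow control peak at 35620964 to 35621431 (468 bp, percentile 1.3), 21.5 kb upstream of the gene and so just outside the limit of 20 kb. The next large T peak on that side was 36.4 kb from the gene. Elsewhere the limit fell in sparse sequence: the farthest peak inside it was 16.9 kb from a gene body (Nanog), and the nearest outside it were 24.9 kb (Nanog) and 35.3 kb to 37.8 kb (Klf4 and Myc) away.

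Nanog encodes a homeodomain factor that stabilises the pluripotent state. Its gene body is chromosome 6, 122657507 to 122664651, and it had 3 peaks in each list, all of them found in both. The farther upstream peak was at 122638744 to 122640572 in control cells (1829 bp, score 597.82) and 122638989 to 122640567 in large T cells (1579 bp, score 655.15), 16.9 kb from the start in both. It ranked 2132 of 75120 control peaks and 1340 of 63258 large T peaks, and was the only one of the 12 peaks of its list above percentile 90.

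The nearer upstream peak of Nanog was at 122651975 to 122653675 in control cells (1701 bp, percentile 82.6) and 122651558 to 122653976 in large T cells (2419 bp, percentile 86.7). It ended 3.83 kb before the start in control cells and 3.53 kb before it in large T cells. The large T peak was wider by 718 bp and contained the control peak, and 1.6% of all paired peaks gained more width. The downstream peak was at 122669592 to 122670453 in control cells (862 bp, percentile 49.8) and 122669571 to 122670625 in large T cells (1055 bp, percentile 45.3). Open sites thus flanked Nanog on both sides, with a gap of 15.9 kb in control and 15.6 kb in large T cells that held the whole gene. That gap was close to the median gap of each list (percentiles 54.8 and 50.2). The coding neighbours of Nanog in GRCm38 are Dppa3, a germ line and early embryo gene, upstream and Slc2a3, a glucose transporter gene, downstream, and none of the 3 peaks was assigned to a gene.

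Sox2 encodes an HMG-box factor that partners with Oct4 on DNA and also marks neural and other progenitors. Its gene body is chromosome 3, 34548927 to 34551382. The control peak over its start was at 34547743 to 34550425 (score 144.92, percentile 52.0) and the large T peak at 34547776 to 34550619 (score 211.54, percentile 65.4). They reached 1184 bp and 1151 bp upstream of the start and covered 61.0% and 68.9% of the gene body. For such wide peaks the scores were modest. Of the 5957 control peaks at least this wide, 12.2% scored lower and the median score percentile was 82.9, and of the 2891 such large T peaks 25.9% scored lower and the median was 80.0.

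The Sox2 peak also stood alone in the control list. In control cells the next peaks were 78.2 kb upstream and 160.0 kb downstream, longer than 93.3% and 97.6% of the gaps of the list. Its nearest neighbour was farther away than that of 98.1% of control peaks. In large T cells the upstream gap was 78.3 kb, longer than 91.3% of the gaps of that list. The downstream gap was only 12.1 kb, longer than 41.4%, and ended at a second peak at 34562721 to 34563952 (1232 bp, score 52.94). That peak had no control counterpart, stood at percentile 3.2, near the minimum score of the list, and ranked 61227 of 63258.

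Klf4 encodes a Krüppel-like zinc finger factor with roles in the epidermis and in growth arrest. Its gene body is chromosome 4, 55540010 to 55545337, on the minus strand, so that its start is at the higher coordinate. The control peak over the start was at 55542193 to 55547480 (5288 bp, score 213.32, percentile 67.6) and the large T peak at 55542402 to 55547208 (4807 bp, score 314.08, percentile 79.8). Both were among the widest of their list, at width percentiles 99.52 and 99.55. For peaks this wide the scores were not low: Klf4 outscored 69.6% of the 358 control peaks and 83.4% of the 283 large T peaks at least as wide, whose median score percentiles were 59.2 and 58.9. The peaks reached from 2143 bp upstream to 3144 bp downstream of the start in control cells and from 1871 bp upstream to 2935 bp downstream in large T cells, over 59.0% and 55.1% of the gene body.

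Klf4 had further peaks on both sides. An upstream peak at 55553753 to 55555184 in control cells (1432 bp, percentile 78.8) and 55553632 to 55555348 in large T cells (1717 bp, percentile 84.4) lay 8.42 kb and 8.29 kb from the start, and it had the highest score near this gene in both lists. A peak at 55527273 to 55528273 in control cells (1001 bp, percentile 59.3) and 55527262 to 55528336 in large T cells (1075 bp, percentile 70.9) lay beyond the far end of the gene. The control list also had a narrow peak at 55555525 to 55556386 (862 bp, percentile 4.8) with no counterpart. It began 340 bp past the end of the shared upstream peak and 177 bp past the end of the large T peak there, so the lists differed here by a low-scoring peak next to a shared site.

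Myc encodes a basic helix-loop-helix factor that promotes cell growth and division. Its gene body is chromosome 15, 61816893 to 61821916. The control peak over the start was at 61814495 to 61820370 (5876 bp, score 220.86, percentile 68.9) and the large T peak at 61814536 to 61820130 (5595 bp, score 291.46, percentile 77.3). At width percentiles 99.74 and 99.82, these were the widest of the 12 peaks in each list, and they covered 69.2% and 64.5% of the gene body. Only 192 control peaks and 113 large T peaks were at least as wide. Of those, 87.5% and 93.8% scored lower than the Myc peak, and their median score percentiles were 49.5 and 50.7.

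Downstream of Myc each list had 1 peak that the other lacked. Both had a peak at 61830076 to 61831047 (control, 972 bp, percentile 63.0) and 61830055 to 61831200 (large T, 1146 bp, percentile 65.6). The control list alone had a peak at 61835215 to 61836259 (1045 bp, percentile 41.8), 4.01 kb from the nearest large T peak. The large T list alone had a peak at 61822397 to 61824584 (2188 bp, percentile 33.8), which began 481 bp past the end of the gene and 2.03 kb from the nearest control peak. On the upstream side both lists were empty for 82.2 kb (control) and 82.3 kb (large T), longer than 93.8% and 91.8% of their gaps.

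**Figure D3:**
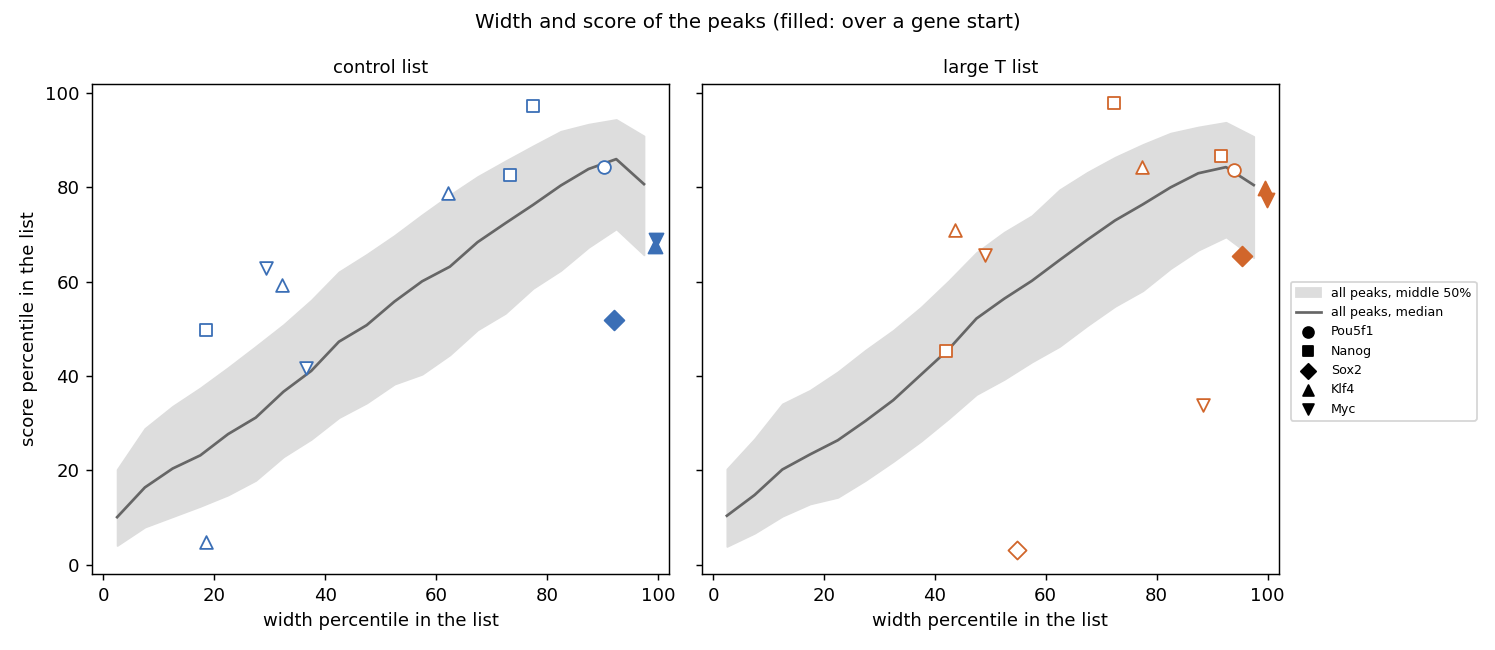
Score percentile (vertical axis) against width percentile (horizontal axis) of the 12 peaks in the control list (left) and the 12 in the large T list (right), with the gene as the symbol shape and filled symbols for peaks over a gene start; the grey line and band are the median and the middle 50% of all peaks of the list in bins of 5 width percentiles. The peaks over the starts of Sox2, Klf4 and Myc lie at the far right, below the level of the grey line, whose last bin pools width percentiles 95 to 100; against peaks at least as wide as themselves, the Klf4 and Myc peaks outscored most and the Sox2 peaks did not, while the farther upstream peak of Nanog lies above the band in both lists.

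The windows around the genes were set against the whole lists by tiling the autosomes and the X chromosome into windows of 45 kb, close to the 42456 to 47145 bp examined per gene. Each of the 5 genes had at least 1 peak in both lists, and 59.6% of all control windows and 53.5% of all large T windows did. The tiled windows were not centred on genes, so this is a loose yardstick. Klf4 had 4 control peaks, more than 89.8% of windows, and Myc and Nanog 3 each, more than 78.1%. Pou5f1 and Sox2, with 1 control peak each, had more than 40.4%. In the large T list Nanog, Klf4 and Myc had 3 each, more than 83.0% of windows, so counts of peaks did not set the expressed genes apart from Nanog. Covered sequence did: Klf4 and Myc exceeded 97.8% and 96.9% of control windows and 98.0% and 99.13% of large T windows. Nanog exceeded 83.6% and 91.6%, Sox2 72.5% and 89.3%, and Pou5f1 69.4% and 77.5%. The peak over the start supplied most of the covered sequence at Klf4 and Myc. In control cells it gave 5288 of 8583 bp at Klf4 and 5876 of 7893 bp at Myc. In large T cells it gave 4807 of 7599 bp and 5595 of 8929 bp. Coverage is thus not a trait separate from the width of those peaks.

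Over a wider range the genes lay in unlike surroundings. Within 500 kb of the start of Myc the control list had 8 peaks upstream and 36 downstream, and the large T list 7 and 36. All 5 upstream bins of 100 kb had 3 or fewer peaks in both lists, and all 5 downstream bins had at least 5. The noncoding gene Pvt1, a neighbour of Myc known for long-range regulatory elements, lies in the downstream direction in GRCm38, and its mm9 position was not used here. Sox2 lay in the emptiest surroundings of the 5 genes, with 12 control and 16 large T peaks within 500 kb, against list means of 29.2 and 24.6 peaks per Mb. Pou5f1 lay in the fullest, with 63 and 54, but these were spread unevenly. The bin from 200 to 100 kb upstream held 2 control peaks and 1 large T peak. The bin from 100 kb upstream to the start held 3 in each list. The first 100 kb downstream held 7 and 6, and the busiest bin, 300 to 400 kb downstream, held 10 in each list. Nanog had 47 and 48 peaks and Klf4 31 and 38.

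**Figure D4:**
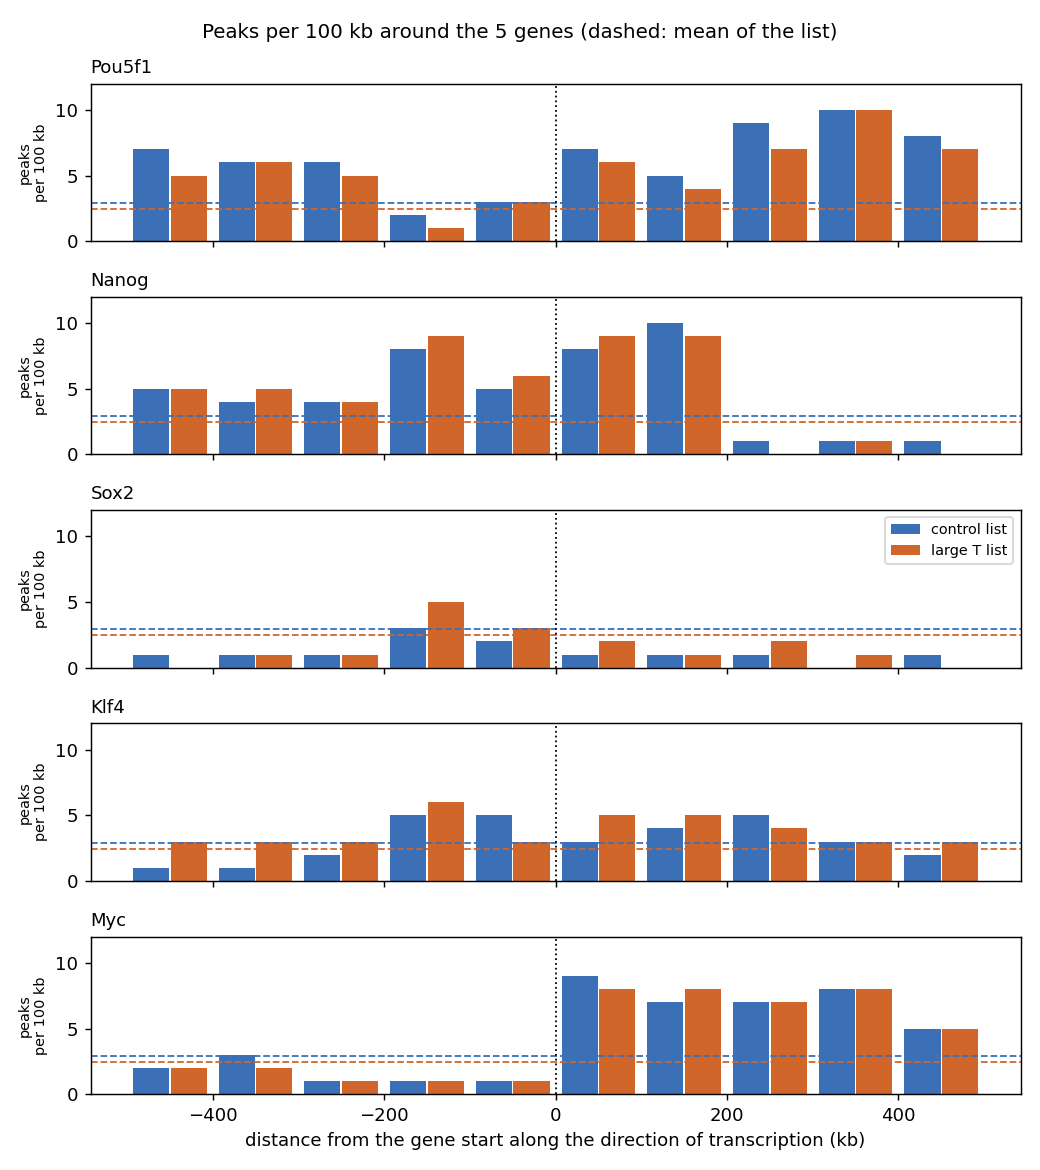
Peaks per bin of 100 kb (vertical axis) by distance from the gene start along the direction of transcription (horizontal axis, kb), for the control (blue) and large T (orange) lists; dashed lines are the means of the lists, 2.92 and 2.46 peaks per 100 kb. Myc has few peaks upstream and many downstream, and Sox2 is below the means in most bins.

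Most open sites near the 5 genes were found in both control and large T cells. Any overlap between a control and a large T peak, from 1 bp up, made both shared. Of the 12 control peaks 10 were shared (83.3%, against 71.2% of all control peaks), and of the 12 large T peaks 10 were shared (83.3%, against 85.2% of all large T peaks). These shares are near those of the whole lists. The shared sites included every peak near Pou5f1 and Nanog and every peak over a start, and the set of genes with a peak over the start was the same in both lists. The 4 peaks found in 1 list only lay near Sox2, Klf4 and Myc, and all 4 were below percentile 50. In that lower-scoring part of the lists 49.2% of control peaks and 72.8% of large T peaks were shared, against 93.3% and 97.7% in the higher-scoring part.

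The 10 shared sites stood somewhat higher in the large T list than in the control list. Ranks were taken among the 53375 sites paired between the lists, so that unequal list length does not enter. The percentile was higher in the large T list for 10 of the 10 sites, and for 50.2% of all pairs. The differences, large T minus control, ran from 1.5 points at the farther upstream peak of Nanog to 22.8 points at the start of Sox2, with a median of 10.6. At the starts of Klf4 and Myc they were 20.8 and 16.1 points. For comparison, the middle 50% of all pairs lay between -9.8 and 10.2 points, and 5 of the 10 sites lay above that range. Ranked in the whole lists, 8 of the 10 were higher in the large T list, and the peak near Pou5f1 (-0.7 points) and the downstream peak of Nanog (-4.5 points) were lower.

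These 10 sites come from 5 regions and from 1 pair of libraries, so they are not 10 separate observations, and whether the shift exceeds the spread between cultures cannot be told from these data. Width moved as well: 7 of the 10 sites were wider in the large T list, against 28.4% of all pairs, and all pairs had a median width change of -156 bp. The 3 sites that narrowed were the peaks over the starts of Klf4 (-481 bp) and Myc (-281 bp) and the farther upstream peak of Nanog (-250 bp). Score percentile and width thus moved in opposite directions at the starts of Klf4 and Myc, and in the same direction at the start of Sox2, where the large T peak was wider by 161 bp. Depth is unknown in both libraries, and its part in these shifts was not tested.

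**Figure D5:**
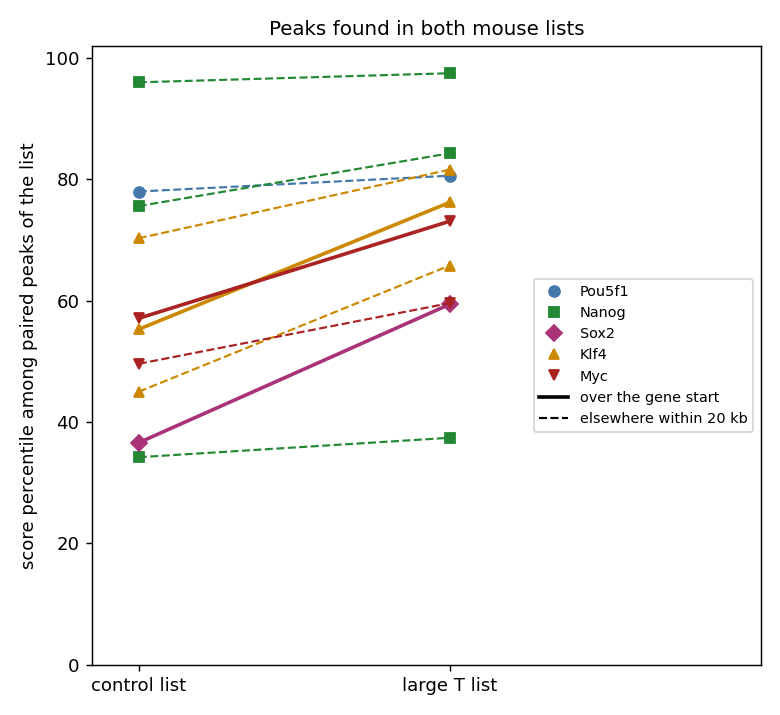
Score percentile among the 53375 paired peaks (vertical axis) in the control list and the large T list for the 10 sites found in both, joined by a line per site, with solid lines for peaks over a gene start and dashed lines for the others. All 10 lines rise from control to large T, by 1.5 to 22.8 points.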

How the data were processed

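Peak lists of 2 mouse ATAC-seq libraries, 1 per group, were analysed. The authors deposited 1 list per library with a peak's position, name and score. The peak names begin with MACS, per the file contents, and the submitters' processing notes name mm9, CASAVA, Bowtie, SAMtools and bedtools without roles. The score in the deposited lists has no stated definition or common scale, and nothing states that libraries were pooled. Starts are printed 1-based.

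Peaks overlapping a gene body extended by 20 kb were taken. Gene body lengths were within 11 bp of RefSeq's GRCm38 gene table, used otherwise for names and gene order only. Strands came from RefSeq's promoter table, that of Myc from general knowledge. Pairs are mutually longest overlaps. Overlap counts were equal to those of bedtools 2.31.1, and on simulated lists planted shares of 50% and 90% came back as 50.0% and 90.0% of 75120 peaks. Simulated peaks were copies of control peaks shifted by up to 100 bp, with no change of width. They checked the code only and say nothing about the pairing of real peaks. Python 3.11.15, numpy 2.4.6, pandas 2.3.3 and matplotlib 3.10.9 were used. All 5 genes are named, with peaks over the start, the highest per gene and those of 1 list in full. Members and lists were chosen with earlier results of these data known. Other window sizes, overlaps, percentiles and list lengths were tried. Sequences of miRNAs were not used.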

Additional observations from a re-analysis of the deposited data

How the results depend on the processing

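No paired analysis was possible because each group has 1 library. With a window of 50 kb the 5 genes had 25 peaks in each list in place of 12, and 84.0% of them were shared in each. With 10 kb all of the 8 control peaks were shared (100%), and 8 of the 9 large T peaks (88.9%). The median over the 5 genes of the highest score percentile was 78.8 in the control list. It was 70.4 among peaks with a counterpart, 74.8 with lists of equal length (the 63258 highest-scoring peaks of each) and 92.1 by width. In the large T list it was 83.6, and 80.7 among peaks with a counterpart and 95.4 by width. The same 3 genes of 5 had a peak over the start when a peak within 1 kb of the start was enough and when only the 50% highest-scoring peaks were kept. No share over all gene starts was determined for comparison. By width, Myc and Klf4 had the highest percentiles in both lists. By score they were Nanog (97.2) and Pou5f1 (84.3) in control cells, and Nanog (97.9), Klf4 (84.4) and Pou5f1 (83.6) in large T cells. Of the values per gene under these settings, 64 counted as unchanged and 36 moved. Unchanged meant a count within 1.5 times, a percentile within its counting interval, or the same answer on a peak over the start. The counting interval treated all 75120 control or 63258 large T peaks as separate draws and was therefore very narrow. Almost any change of ranking falls outside it, so a moved percentile says little about stability. Every such answer was unchanged. Percentiles per gene were unchanged only in the large T list at equal length, a setting that leaves that list uncut, and all others moved. Depth, which is unknown, limits all counts of peaks.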
